A study of Mus musculus with 7 samples.

Results

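The mRNAs of 10 enzymes of mitochondrial beta-oxidation were followed in the livers of TET1 KO and WT mice fed a high-fat diet (HFD). The 10 genes, of 51426 in the count tables, were chosen by name for their role in the pathway, and were Acadvl, Acadl, Acadm, Acads, Hadha, Hadhb, Hadh, Acaa2, Eci1 and Decr1. Liver RNA was sequenced from 3 WT and 4 TET1 KO male mice, one library per mouse, and the reads were counted on each gene. The mice were labelled C57BL/6J, and the HFD began at 8 weeks of age and lasted 16 weeks in both genotypes. TET1 was deleted in the whole body of the KO mice, which carry the Tet1 allele of the strain B6;129S4-Tet1tm1.1Jae/J, so the loss is not limited to hepatocytes. The WT mice were littermate controls with the same diet, and no chow-fed mice are compared here. Levels are read counts scaled to library size (CPM) after TMM normalization. The genotypes were compared by edgeR's quasi-likelihood test over the 14754 genes that passed a filter on low counts, and those with a Benjamini-Hochberg adjusted p under 0.05 are said to be called. Differences are log2 fold changes of TET1 KO against WT with their standard error (SE). All 10 genes passed that filter.

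Beta-oxidation shortens an activated fatty acid in the mitochondrial matrix, releasing an acetyl-CoA in each turn of a cycle of 4 steps. An acyl-CoA dehydrogenase introduces a double bond, a hydratase adds water, a hydroxyacyl-CoA dehydrogenase oxidizes the hydroxyl group, and a thiolase cleaves the chain. The liver uses the cycle in fasting to supply energy and ketone bodies, and many of its genes are targets of the nuclear receptor PPARalpha. TET1 is a dioxygenase that oxidizes methylated cytosine, mostly at CpG, which is why the CpG of some promoters are shown here.

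None of the 10 enzymes was called in either direction, beside 1.15% of all tested genes called lower and 0.874% called higher. The fitted log2 fold change of TET1 KO against WT was below 0 for 8 of the 10 enzymes, a direction that 48.9% of all tested genes had. The median over the 10 was -0.26, beside 0.01 over all genes tested. At an unadjusted p under 0.05, 4 enzymes (Hadha, Acadm, Acads and Hadh) were lower and none was higher, beside 12.7% of all genes lower and 13.6% higher. For Hadha and Hadh, the highest TET1 KO liver was below the lowest WT liver, a separation that 10.8% of all genes had. The exceptions in direction were Hadhb and Eci1, whose log2 fold changes were 0.05 and 0.07. DESeq2, run as the alternative test, called 1 of the 10, Hadha, beside 4.82% of all genes called lower. In bulk liver, fewer cells of a type and less RNA per cell cannot be told apart.

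**Figure D1:**
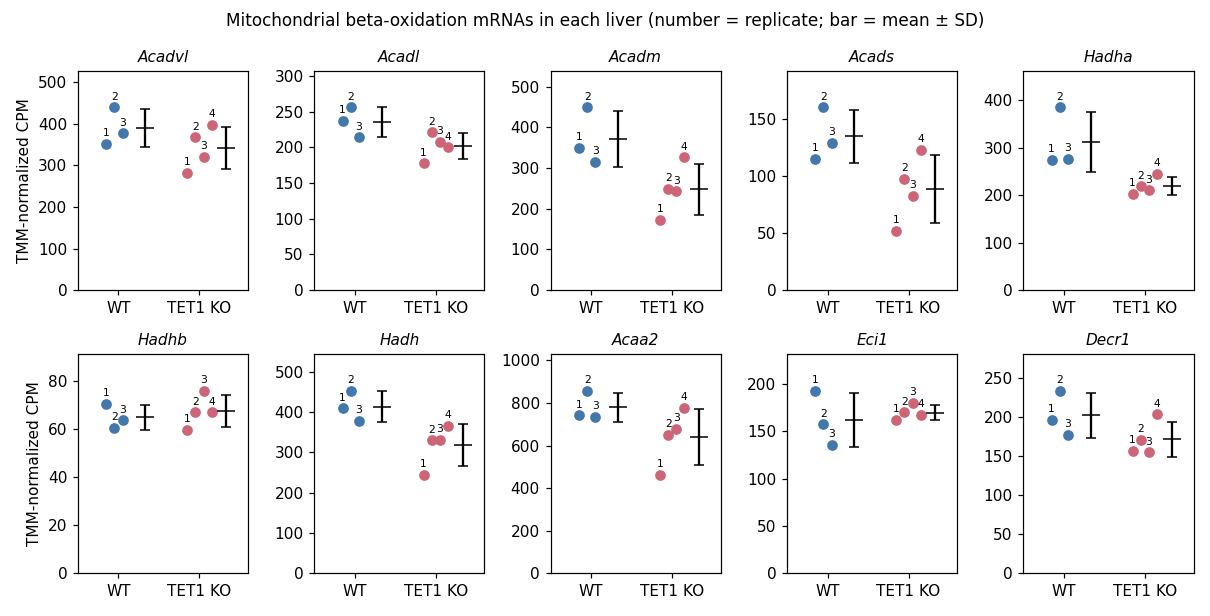
TMM-normalized CPM of each of the 10 mRNAs, one point per liver numbered by replicate, with the mean and SD of the 3 WT livers (blue) and the 4 TET1 KO livers (red) in black beside them and each axis starting at 0. The groups are apart for Hadha and Hadh, TET1 KO replicate 4 reaches the WT range for Acadm, Acads and Acaa2, and the Hadhb and Eci1 points overlap.

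The upstream sequences of 4 start sites are shown because they belong to the genes on which the contrasts below turn. The first lies between the start sites of both subunits of the trifunctional protein, which are transcribed in opposite directions, the next are those of Acadm and Acads, which had the lowest TET1 KO level relative to WT, and the last is that of Eci1, one of the genes above 0. Each is the 250 bases before the RefSeq start site in GRCm38.p6, read on the gene's strand, with every CpG in capitals.
Hadhb (chr5:30155003-30155252, plus strand): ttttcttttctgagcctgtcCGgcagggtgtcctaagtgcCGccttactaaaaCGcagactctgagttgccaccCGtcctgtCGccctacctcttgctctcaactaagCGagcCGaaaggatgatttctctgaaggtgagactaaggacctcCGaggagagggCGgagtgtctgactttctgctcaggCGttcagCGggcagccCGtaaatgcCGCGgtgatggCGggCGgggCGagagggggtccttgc
Acadm (chr3:153944644-153944893, minus strand): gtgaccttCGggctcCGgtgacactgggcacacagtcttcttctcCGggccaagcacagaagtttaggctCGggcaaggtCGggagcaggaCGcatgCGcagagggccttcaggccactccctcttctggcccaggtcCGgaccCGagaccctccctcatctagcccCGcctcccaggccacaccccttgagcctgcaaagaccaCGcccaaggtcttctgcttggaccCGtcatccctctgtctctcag
Acads (chr5:115119347-115119596, minus strand): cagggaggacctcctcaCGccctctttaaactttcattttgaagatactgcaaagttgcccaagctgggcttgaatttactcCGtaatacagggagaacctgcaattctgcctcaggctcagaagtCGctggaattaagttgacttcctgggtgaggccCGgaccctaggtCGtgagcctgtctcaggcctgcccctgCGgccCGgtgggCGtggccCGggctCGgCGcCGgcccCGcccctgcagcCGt
Eci1 (chr17:24426433-24426682, plus strand): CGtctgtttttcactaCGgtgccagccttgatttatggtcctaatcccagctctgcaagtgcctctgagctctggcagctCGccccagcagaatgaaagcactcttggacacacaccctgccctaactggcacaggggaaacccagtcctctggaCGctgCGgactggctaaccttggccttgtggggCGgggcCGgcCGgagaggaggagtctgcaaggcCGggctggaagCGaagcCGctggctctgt

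These stretches hold 17 CpG for Hadhb, 12 for Acadm, 14 for Acads and 11 for Eci1. Over all 27025 RefSeq promoters searched, the median was 6 CpG in the same 250 bases. The promoter table used here held an entry for 8 of the 10 genes, and each of the 8 had more CpG than that median, from 8 in Hadh to 25 in Acadl. Of all promoters, 59.3% had as few CpG as Hadh or fewer, and 90.8% as few as Acadl or fewer. The stretches of Hadha (16 CpG) and Hadhb are largely the same bases on opposite strands, so they are not separate counts. The start sites of Hadha and Hadhb are separated by 272 bases, and the stretch printed for Hadhb lies upstream of both. The half-site AGGTCA, the element read by nuclear receptors such as PPARalpha, was found exactly on either strand in 2 of the 8 (Acadvl and Acadm), and in 13.8% of all promoters. A direct repeat of 2 such half-sites with a gap of 1 base, allowing up to 2 mismatches in the 12 fixed letters, was found in none of the 8 and in 3.2% of all promoters. With so small a share, finding none in 8 says little, and sites beyond the 250 bases were not searched. A direct repeat can contain an exact half-site, so the searches overlap. DNA methylation at these CpG was not analysed here.

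The acyl-CoA dehydrogenases, which carry out the first step, differ in the chain length they take. Acadvl (ENSMUSG00000018574, chr11:70010183-70015428, GRCm38) encodes the very-long-chain enzyme, which is bound to the inner membrane. It had 351, 439 and 377 CPM in WT replicates 1 to 3 and 282, 367, 320 and 397 CPM in TET1 KO replicates 1 to 4. The groups overlapped, with 2 of the 4 TET1 KO livers below the lowest WT liver. Fitted on the log2 scale, the difference was -0.19 (SE 0.16, adjusted p = 0.466), and the TET1 KO mean was 87.8% of the WT mean. It was -0.10 without WT replicate 2 and -0.11 without TET1 KO replicate 1.

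Acadl (ENSMUSG00000026003, chr1:66830839-66863309) encodes the long-chain enzyme. It had 238, 256 and 214 CPM in WT livers and 178, 221, 208 and 200 CPM in TET1 KO livers. Only TET1 KO replicate 2 reached the WT range. On the log2 scale it differed by -0.23 (SE 0.13, adjusted p = 0.296).

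Acadm (ENSMUSG00000062908, chr3:153922353-153944643) encodes the medium-chain enzyme, whose loss is a common inherited defect of fatty acid oxidation in humans. It had 351, 449 and 315 CPM in WT livers and 174, 250, 243 and 327 CPM in TET1 KO livers. TET1 KO replicate 4 was the only one above the lowest WT liver. The means were 372 ± 69.6 CPM (SD, n = 3) and 248 ± 62.8 CPM (SD, n = 4), so that the TET1 KO mean was 66.8% of the WT mean. The log2 fold change was -0.58 (SE 0.21, 95% interval -1.04 to -0.12), with an edgeR p of 0.0177 and an adjusted p of 0.120.

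Acads (ENSMUSG00000029545, chr5:115110299-115119346) encodes the short-chain enzyme. It had 115, 161 and 129 CPM in WT livers and 52.1, 97.7, 83.0 and 123 CPM in TET1 KO livers. Here too TET1 KO replicate 4 alone lay within the WT range, and replicate 1 lay below the other 6 livers. The means were 135 ± 23.2 CPM (SD, n = 3) and 89.0 ± 29.7 CPM (SD, n = 4), the TET1 KO mean being 65.9% of the WT mean. The fitted log2 difference was -0.60 (SE 0.24, 95% interval -1.14 to -0.07), with an edgeR p of 0.0309 and an adjusted p of 0.152.

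The 4 dehydrogenases thus had fold changes from -0.60 to -0.19, and those of the medium-chain and short-chain enzymes were farther below 0 than those of the enzymes for longer chains, a difference that was not tested. To compare them within a liver, ratios of CPM were taken, chosen after the values had been seen and given without a test. The ratio of Acads to Acadvl was 0.328, 0.365 and 0.343 in WT livers and 0.185, 0.266, 0.259 and 0.310 in TET1 KO livers, without overlap. The ratio of Acadm to Acadvl was 0.998, 1.02 and 0.836 in WT livers and 0.615, 0.681, 0.759 and 0.823 in TET1 KO livers, also without overlap, although TET1 KO replicate 4 and WT replicate 3 nearly met. Against Acadl the groups overlapped. The ratio of Acadm to Acadl was 1.47, 1.75 and 1.47 in WT livers and 0.977, 1.13, 1.17 and 1.63 in TET1 KO livers, and that of Acads to Acadl reached 0.614 in TET1 KO replicate 4 against 0.484 to 0.626 in WT livers.

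The trifunctional protein, a membrane-bound complex that carries out the last 3 steps for long chains, is built from the products of Hadha and Hadhb. Hadha (ENSMUSG00000025745, chr5:30119423-30154980) encodes the alpha subunit, with the hydratase and the hydroxyacyl-CoA dehydrogenase. It had 275, 385 and 277 CPM in WT livers and 202, 218, 210 and 245 CPM in TET1 KO livers. All 4 TET1 KO livers lay below the lowest WT liver. The means were 312 ± 63.2 CPM (SD, n = 3) and 219 ± 18.7 CPM (SD, n = 4), and the TET1 KO mean was 70.2% of the WT mean. Fitted on the log2 scale, the difference was -0.51 (SE 0.16, 95% interval -0.86 to -0.16), with an edgeR p of 0.00781 and an adjusted p of 0.0897. DESeq2 gave an adjusted p of 0.0325 for the same gene, so its call depends on the test. Without WT replicate 2, the edgeR value was -0.34 (adjusted p = 0.345).

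Hadhb (ENSMUSG00000059447, chr5:30155253-30184593) encodes the beta subunit, which is the thiolase. It had 70.8, 60.7 and 63.7 CPM in WT livers and 59.9, 67.1, 76.2 and 67.1 CPM in TET1 KO livers. The groups overlapped, with both the lowest and the highest value in TET1 KO livers. On the log2 scale it differed by 0.05 (SE 0.13, 95% interval -0.23 to 0.34, adjusted p = 0.806), and its sign changed when libraries were scaled by size only (-0.04) and without WT replicate 2 (-0.00060) or TET1 KO replicate 3 (-0.02).

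The genes of these subunits, which start on either side of the stretch printed for Hadhb, were also compared within each liver. The ratio of Hadha to Hadhb was 3.88, 6.35 and 4.34 in WT livers and 3.38, 3.25, 2.76 and 3.66 in TET1 KO livers. The groups did not overlap in this ratio, which was chosen after the values had been seen and was not tested. WT replicate 2, at 6.35, had both the highest Hadha and the lowest Hadhb of the WT livers. Per kilobase of exon, the mean WT level was 58.4 CPM for Hadha and 9.87 CPM for Hadhb, with the exon lengths of an older annotation, in which 6595 bases are given to Hadhb.

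**Figure D2:**
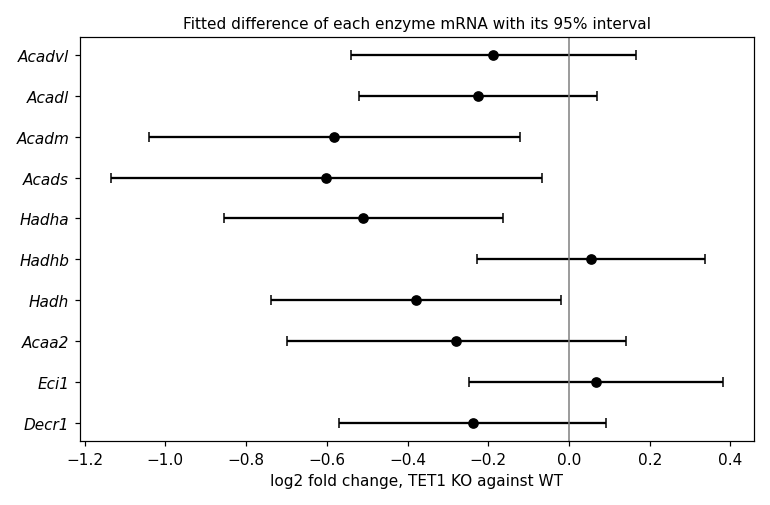
Fitted log2 fold change of TET1 KO against WT (horizontal axis) for each of the 10 enzymes, with its 95% interval as a bar and 0 as a grey line. The intervals of 4 enzymes (Acadm, Acads, Hadha and Hadh) lie below 0, and those of the other 6 include 0. They are not adjusted for the number of genes.

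The matrix enzymes complete the cycle for medium and short chains. Hadh (ENSMUSG00000027984, chr3:131233419-131272101) encodes their hydroxyacyl-CoA dehydrogenase. It had 409, 453 and 378 CPM in WT livers and 245, 330, 332 and 365 CPM in TET1 KO livers. All 4 TET1 KO livers were below the lowest WT liver. The means were 413 ± 37.7 CPM (SD, n = 3) and 318 ± 51.5 CPM (SD, n = 4). The log2 fold change was -0.38 (SE 0.16, 95% interval -0.74 to -0.02), with an edgeR p of 0.0406 and an adjusted p of 0.171.

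Acaa2 (ENSMUSG00000036880) encodes the matrix thiolase of the cycle. It had 743, 859 and 737 CPM in WT livers and 463, 651, 679 and 776 CPM in TET1 KO livers. TET1 KO replicate 4 lay within the WT range, and the other 3 lay below it. The fitted log2 difference was -0.28 (SE 0.19, 95% interval -0.70 to 0.14, adjusted p = 0.362), and -0.15 without TET1 KO replicate 1.

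The auxiliary enzymes prepare double bonds of unsaturated fatty acids for the cycle. Eci1 (ENSMUSG00000024132, chr17:24426683-24439316) encodes an enoyl-CoA isomerase. It had 193, 157 and 136 CPM in WT livers and 162, 170, 180 and 167 CPM in TET1 KO livers. All 4 TET1 KO livers lay inside the WT range. Fitted on the log2 scale, the difference was 0.07 (SE 0.14, 95% interval -0.25 to 0.38, adjusted p = 0.786), and it was -0.03 when libraries were scaled by size only and -0.07 without WT replicate 3.

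Decr1 (ENSMUSG00000028223, chr4:15917240-15945377) encodes a dienoyl-CoA reductase. It had 197, 234 and 178 CPM in WT livers and 157, 171, 155 and 204 CPM in TET1 KO livers. TET1 KO replicate 4 again lay within the WT range, with the other 3 below it. On the log2 scale it differed by -0.24 (SE 0.15, 95% interval -0.57 to 0.09, adjusted p = 0.325), and by -0.13 without WT replicate 2.

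Between genes, levels can be set side by side only per length. In WT livers, Acaa2 was highest, with 514 ± 45.3 CPM per kilobase of exon (SD, n = 3). Eci1 (149 ± 26.5), Acadvl (145 ± 16.8), Acadm (127 ± 23.7) and Acadl (118 ± 10.5) followed, and each differed from the next by less than the larger of the SDs. Next came Hadh at 83.0 ± 7.58 CPM per kilobase, and then Acads at 59.5 ± 10.2, Hadha at 58.4 ± 11.8 and Decr1 at 52.3 ± 7.44, which again differed from the next by less than 1 SD. Hadhb was lowest, at 9.87 ± 0.784. In TET1 KO livers, Acaa2 (424 ± 86.6) and Hadhb (10.2 ± 1.02) kept the ends of the order, and Eci1 (156 ± 6.91), Acadvl (127 ± 18.9) and Acadl (101 ± 9.15) came between them with Acadm (84.7 ± 21.4), which differed from Acadl by less than its SD.

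The livers of a genotype also differed among themselves. The summed CPM of the 10 mRNAs was 2941, 3455 and 2805 in WT livers and 1974, 2544, 2487 and 2873 in TET1 KO livers. TET1 KO replicate 4 exceeded WT replicate 3, so the groups overlapped, and the TET1 KO mean was 80.5% of the WT mean. WT replicate 2 had the highest value of the 7 livers in 8 of the 10 genes, and TET1 KO replicate 1 the lowest in 8. Over the 7 livers, the 45 pairs of genes had a median Pearson correlation of log2 CPM of 0.81, from -0.35 to 0.98, as a description of livers that share their genotype difference. After each genotype's mean was taken away, the median was 0.65, from -0.30 to 0.98. Hadhb and Eci1 stood apart, with median correlations with the other 9 genes of 0.00022 and -0.06, against 0.80 to 0.91 for the other 8. With the genotype means taken away, these were 0.22 and 0.14, against 0.64 to 0.87. Hadhb and Eci1 correlated with each other at 0.64, and at 0.62 with those means taken away.

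**Figure D3:**
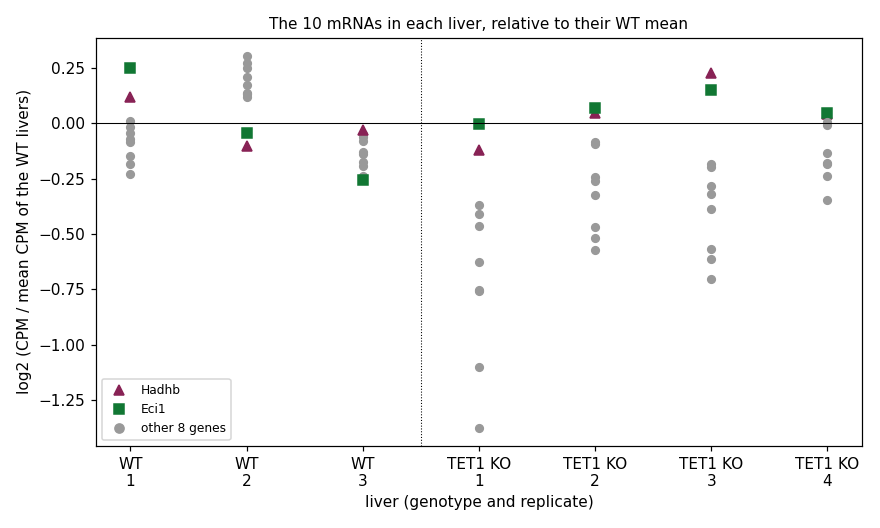
Log2 ratio of each mRNA's CPM to its mean over the WT livers (vertical axis) in each of the 7 livers (horizontal axis), with Hadhb as triangles, Eci1 as squares and the other 8 enzymes as grey circles. The grey circles of WT replicate 2 are all above 0 and those of TET1 KO replicate 1 all below 0, and Hadhb and Eci1 lie above the grey circles in all 4 TET1 KO livers.

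Properties of the libraries had their extremes in the same livers. Transcripts of the mitochondrial genome took 9.98%, 7.25% and 9.51% of the counts in WT livers and 14.4%, 10.3%, 10.9% and 8.78% in TET1 KO livers. The lowest share was that of WT replicate 2 and the highest that of TET1 KO replicate 1, which were also the livers with the highest and the lowest summed CPM of the 10 mRNAs. The share of counts in the 10 most abundant genes was likewise lowest in WT replicate 2 (17.1%) and highest in TET1 KO replicate 1 (19.6%), although WT replicate 1 (19.5%) and TET1 KO replicate 4 (17.1%) were close to these. Their part in the result was not tested. Without WT replicate 2, the median log2 fold change of the 10 enzymes was -0.19, and without TET1 KO replicate 1 it was -0.18. None of the 10 enzymes was called in any of the 7 fits that left out 1 mouse. The total counts lay between 15005277 and 22746138 and overlapped between the genotypes, and the 10 enzymes had from 832 to 20712 counts in a library, so that counting error was at most 3.47% of a value. Tet1 itself had 1, 4 and 1 counts in WT livers and 2, 1, 4 and 1 counts in TET1 KO livers, too few to check the genotype labels (exact permutation of the CPM over 35 splits of the mice, two-sided, p = 0.743, with 0.0286 the smallest possible).

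Cell type markers gave the following. The hepatocyte list of 8 genes, led by albumin, summed to between 74191 and 92750 CPM in WT livers and between 80944 and 93255 CPM in TET1 KO livers. None of the 8 was called, and these markers of the labelled tissue were high in every library. Albumin held most of the sum (mean 54537 of 84941 CPM in WT livers), and 5 markers were above 0 and 3 below. Named after their values were seen, Apoa1 (log2 fold change 1.10, adjusted p = 0.0818) and Serpina1a (0.46, adjusted p = 0.197) had groups apart with TET1 KO above. That separation was one of 11.7% of all genes. Cps1 was at -0.45 and Tf at -0.23, and their groups overlapped. None of the 5 cholangiocyte markers was called, although all 5 had a log2 fold change above 0. Of these, 4 had an unadjusted p under 0.05, beside 13.6% of all genes higher at that cut. The summed level of the 5 markers was 29.7 to 37.8 CPM in WT livers and 46.1 to 68.0 CPM in TET1 KO livers, without overlap. The 6 endothelial markers summed to between 145 and 147 CPM in WT livers and 121 and 140 CPM in TET1 KO livers, also without overlap and with none called. Those of Kupffer cells (7 genes, 177 to 293 CPM in WT and 130 to 293 in TET1 KO livers) and stellate cells (6 genes, 215 to 331 and 207 to 290) overlapped. DESeq2 called 3 cholangiocyte and 2 hepatocyte markers higher, beside 4.65% of all genes. It called 1 endothelial and 1 stellate cell marker lower, beside 4.82% of all genes. Markers of T and NK cells (5 genes) stayed at or under 4.58 CPM in sum. Those of adipocytes (5 genes) summed to at most 3.25 CPM in WT livers and ranged from 0.278 to 19.4 CPM in TET1 KO livers, the highest being replicate 2, with Adipoq, Lep, Plin1 and Retn at 0 in at least 1 WT library. Their part in the values of the 10 enzymes was not tested.

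Around these enzymes, 71 other genes in 9 lists of the pathway were tested, 3 of which fell in TET1 KO livers and none of which rose. Of the 71, 52 had a log2 fold change below 0 and 19 above, with a median of -0.25, close to that of the 10 enzymes. Beside these calls stand the 1.15% and 0.874% of all genes given above. At an unadjusted p under 0.05, 24 were lower and 6 higher, beside 12.7% and 13.6% of all genes. The groups were fully apart in 23 of the 71 with TET1 KO below, a separation of 10.8% of all genes, and in 5 with TET1 KO above, one of 11.7%. DESeq2 called 13 lower and 5 higher, beside 4.82% of all genes called lower and 4.65% called higher by it. These lists were chosen with earlier results of these data known.

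The other mitochondrial enzymes of the cycle include Echs1, the short-chain hydratase, which with the 10 enzymes completes the set of its steps. Echs1 had 154, 213 and 175 CPM in WT livers and 71.3, 138, 128 and 182 CPM in TET1 KO livers. The groups overlapped through TET1 KO replicate 4, and the fitted log2 difference was -0.48 (SE 0.26, adjusted p = 0.252). None of the 9 genes of this list was called and 8 of them were below 0. The value farthest from 0 was that of Acad11, at -0.94 (SE 0.28, adjusted p = 0.0862), and its groups did not overlap. Acad11 is an acyl-CoA dehydrogenase family member, and where in the cell its product acts was not examined here.

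Electrons from the acyl-CoA dehydrogenases pass to the electron transfer flavoprotein, whose subunits are encoded by Etfa and Etfb, and then to the ubiquinone pool through the oxidoreductase encoded by Etfdh. None of the 5 genes of this list was called. Etfdh had 144, 265 and 171 CPM in WT livers and 40.3, 88.5, 91.6 and 123 CPM in TET1 KO livers, without overlap. The log2 fold change was -1.17 (SE 0.32, adjusted p = 0.0730), and the TET1 KO mean was 44.5% of the WT mean. Etfb, named after its values were seen, had 261, 189 and 218 CPM in WT livers and 373, 322, 336 and 283 CPM in TET1 KO livers, so its groups were apart in the opposite direction. The fitted log2 difference was 0.56 (SE 0.16, adjusted p = 0.0781).

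The carnitine shuttle brings long-chain acyl groups into the matrix. None of its 6 genes was called, with 4 below 0 and 2 above. The value farthest from 0 was that of Cpt1b, the muscle form of the outer-membrane transferase, which had 2.36, 1.33 and 1.55 CPM in WT livers and 4.32, 4.65, 4.50 and 2.69 CPM in TET1 KO livers. Fitted on the log2 scale, the difference was 1.21 (SE 0.29, adjusted p = 0.0567). The liver form, Cpt1a, named after its values were seen, was present at 264 ± 68.9 CPM (SD, n = 3) in WT and 195 ± 42.6 CPM (SD, n = 4) in TET1 KO livers, and its difference on the log2 scale was -0.44 (SE 0.20, adjusted p = 0.201).

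Peroxisomes run a separate beta-oxidation for very long chains. Of 12 genes 11 were tested, since Eci3 was at or under 3 counts in each library. None was called, and 9 were below 0, beside 48.9% of all tested genes. At an unadjusted p under 0.05, 6 were lower in TET1 KO livers, beside 12.7% of all genes. Ehhadh, the peroxisomal bifunctional enzyme, had 214, 347 and 176 CPM in WT livers and 66.9, 132, 133 and 146 CPM in TET1 KO livers. The groups did not overlap, and the fitted log2 difference was -1.04 (SE 0.28, adjusted p = 0.0713).

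The 3 genes that fell belong to the list of PPARalpha targets outside beta-oxidation, which had 10 genes, 8 below 0 and 2 above, and a median of -0.57. Those above 0, named after their values were seen, were Angptl4, an inhibitor of lipoprotein lipase, at 0.69 (SE 0.22, adjusted p = 0.0977) and Creb3l3, a transcription factor of the liver, at 0.29 (SE 0.14, adjusted p = 0.215). Vnn1, which encodes the pantetheinase vanin, had 103, 113 and 64.1 CPM in WT livers and 4.57, 13.0, 7.67 and 13.1 CPM in TET1 KO livers. On the log2 scale it differed by -3.28 (SE 0.33, adjusted p = 0.00224), with the TET1 KO mean at 10.3% of the WT mean. Plin2, a coat protein of lipid droplets, had 463, 594 and 360 CPM in WT livers and 177, 231, 233 and 298 CPM in TET1 KO livers. Its difference on the log2 scale was -1.01 (SE 0.21, adjusted p = 0.0382). Cyp4a14, a fatty acid omega-hydroxylase, had 272, 628 and 146 CPM in WT livers and 47.0, 60.7, 81.9 and 125 CPM in TET1 KO livers. Its difference on the log2 scale was -2.15 (SE 0.44, adjusted p = 0.0382). Reads of Cyp4a14 may be shared with its close relatives, so its value is uncertain, and with robust dispersions it was not called (adjusted p = 0.0800). All 3 genes were without overlap between the groups. Vnn1 was called in each of the 7 fits without 1 mouse, but Plin2 and Cyp4a14 in only 2 of the 7, those without WT replicate 3 and without TET1 KO replicate 4. Their adjusted p reached 0.191 and 0.186, both without WT replicate 2, where Plin2 was at -0.82 and Cyp4a14 at -1.42 on the log2 scale. Without TET1 KO replicate 4, 9 pathway genes were called lower and 2 higher, in a fit that called 464 of 14420 genes lower and 427 higher.

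**Figure D4:**
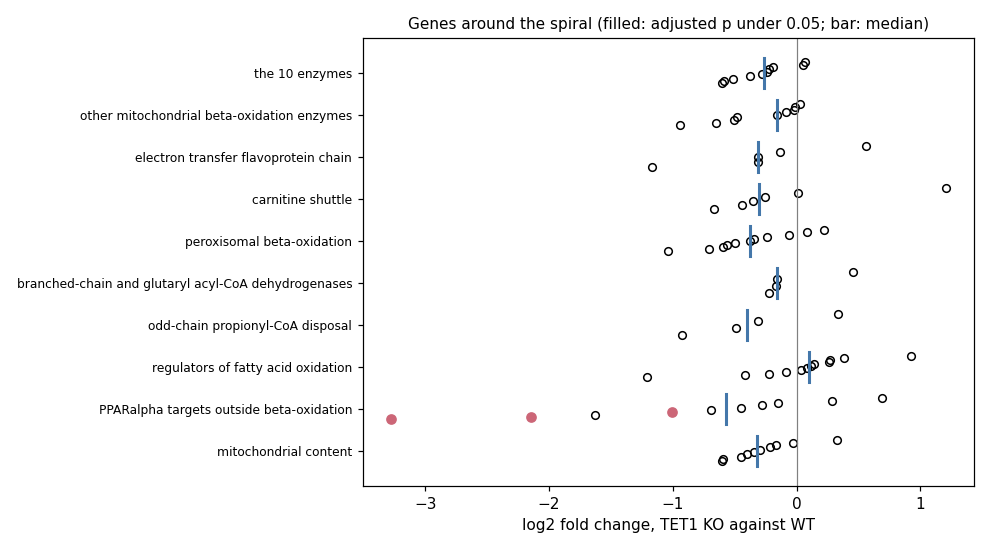
Log2 fold change of TET1 KO against WT (horizontal axis) of the 10 enzymes and of the 71 tested genes in the 9 pathway lists, 1 circle per gene, filled where the adjusted p was under 0.05, with the median of each list as a blue bar. The 3 filled circles (Vnn1, Cyp4a14 and Plin2) are all in the list of PPARalpha targets, and the median of the regulators is the only one above 0, at 0.10.

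Of 12 regulators of fatty acid oxidation, none was called, with 4 below 0 and 8 above. Ppara, which encodes PPARalpha, had 40.0, 66.7 and 38.7 CPM in WT livers and 63.2, 42.8, 40.0 and 36.6 CPM in TET1 KO livers. The groups overlapped, and the fitted log2 difference was -0.09 (SE 0.23, 95% interval -0.60 to 0.42, adjusted p = 0.830). The value farthest from 0 was that of Acacb, the mitochondrial acetyl-CoA carboxylase whose product malonyl-CoA inhibits the carnitine shuttle, at -1.21 (SE 0.43, adjusted p = 0.118).

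General markers of mitochondria were also measured. Of 10 genes, for citrate synthase, subunits of the respiratory chain and ATP synthase, an outer-membrane channel, an import receptor, a matrix chaperone and a transcription factor of mitochondrial DNA, none was called, and 9 were below 0. The median was -0.32, from -0.60 for Ndufs1 to 0.33 for Cox4i1, a complex IV subunit named after its values were seen. Ndufs1, a complex I subunit, had 75.2, 110 and 76.0 CPM in WT livers and 49.9, 54.8, 62.4 and 62.6 CPM in TET1 KO livers. Its groups did not overlap, and the fitted log2 difference was -0.60 (SE 0.16, adjusted p = 0.0716).

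Finally, the genes outside the 10 whose pattern over the 7 livers was most like the mean of the 10 were ranked by the Pearson correlation of log2 CPM, among 7806 genes with a mean of at least 10 CPM. The highest were Ugt1a7c (0.993), Ugt1a5 (0.992), Aldh2 (0.990), Ugt1a9 (0.989) and Dhrs7 (0.987). The Ugt1a genes share exons, so they may hold the same reads. Aldh2, the mitochondrial aldehyde dehydrogenase, had 2152, 2467 and 1887 CPM in WT livers and 1256, 1663, 1678 and 1926 CPM in TET1 KO livers, and its groups overlapped. The most opposite were Fubp1 (-0.985), Nsrp1 (-0.983), Tspan33 (-0.977), Ankhd1 (-0.977) and Pabpc4 (-0.976). With only 7 livers, 13 genes reached a Spearman correlation of 1, and of the 10 genes named here only Dhrs7 and Pabpc4 ranked first at either end by that measure.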

How the data were processed

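Liver RNA of 3 WT and 4 TET1 KO mice on an HFD was analysed, with groups and replicate numbers taken from the sample labels. The authors deposited 1 table of raw read counts per gene for each mouse, not normalized. The submitters' processing notes name Trimmomatic 0.36, GSNAP, featureCounts 1.5.3 and GRCm38, but the strand setting and the handling of reads with several matches are not given in the sources used here, so overlapping genes and close relatives are uncertain. The library kit was strand-specific, after poly(A) selection or removal of ribosomal RNA, without saying which was used. Of 51431 entries per table, 5 repeated an identifier and were left out.

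In R 4.3.3, genes were kept by filterByExpr, scaled by TMM and tested with edgeR 4.0.16 (quasi-likelihood F test, no covariates, Benjamini-Hochberg adjustment over all genes tested). Standard errors (SE) are the absolute log2 fold change over the square root of F. Log2 CPM used a prior count of 2. DESeq2 1.42.0 was the alternative test. The p-values test the genotype difference against the spread between mice. The intervals of the log2 fold changes are built from these SE, so they include that spread. The counting error is given separately and leaves out the spread between mice. No pair of libraries of a genotype agreed within sampling noise (lowest chi-square per degree of freedom 27.4). Coordinates are those of RefSeq in GRCm38.p6, matched by gene symbol, and promoters are RefSeq's in the same build, matched in the same way. Exon lengths, used only for CPM per kilobase, come from GENCODE M1, where all 10 enzymes were found by identifier. Figures were drawn with matplotlib 3.10.9.

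The enzymes, lists and tests were chosen with earlier results of these data known. The genes named are the 10 enzymes, each called pathway gene, the gene with the largest absolute fold change in each pathway list without a call, Echs1, Ppara, Tet1, and the 5 genes most and the 5 least like the 10 enzymes. Others are said to have been chosen after their values were seen. Other settings were DESeq2, RLE or library-size scaling, removal of the filter or a minimum of 10 counts in each library, robust dispersions, a block of replicate numbers, and fits that left out 1 mouse.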

Additional observations from a re-analysis of the deposited data

How the results depend on the processing

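Of 140 recomputed fold changes of the 10 enzymes (14 alternatives), 132 kept their direction and side of the threshold. DESeq2 called 1 enzyme lower (Hadha) and the replicate block 2, Acadm (log2 fold change -0.75, adjusted p = 0.0399) and Acads (-0.83, adjusted p = 0.0232). Scaled by library size only, the median of all genes was -0.08, Hadhb was at -0.0403 and Eci1 at -0.0297, all 10 enzymes were below 0, and calls over all genes were 312 lower and 107 higher, against 169 and 129. Without 1 mouse, Hadhb ranged from -0.0212 to 0.109 and Eci1 from -0.0658 to 0.200. The median of the 10 enzymes kept its sign in every alternative, from -0.36 to -0.18. Of the pathway genes, 3 were called lower and 0 higher. These counts were 13 and 5 with DESeq2, 6 and 1 without a filter, 2 and 0 with robust dispersions (without Cyp4a14), 15 and 3 with the replicate block, and 1 to 9 and 0 to 2 without 1 mouse. Calls over all genes were 710 lower and 685 higher with DESeq2, 347 and 245 of 24623 genes without a filter, 656 and 671 with the block, 21 and 16 without WT replicate 2, and 464 and 427 without TET1 KO replicate 4. The cause of these differences was not tested. Same-numbered livers did not deviate together (correlations 0.21, -0.12 and -0.10), and not every liver correlated best with its own number, so the numbers are not treated as pairs. The common biological coefficient of variation was 0.208, against a counting error of at most 3.47% for the enzymes. The part of either in the number of calls was not tested.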

Other observations

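Neighbouring pathways of acyl-CoA breakdown were measured as well. Of 4 genes for dehydrogenases of branched-chain amino acids and glutaryl-CoA, none was called and 3 were below 0. The value farthest from 0 was that of Ivd, the isovaleryl-CoA dehydrogenase of leucine breakdown, which had 111, 127 and 123 CPM in WT livers and 155, 178, 153 and 175 CPM in TET1 KO livers. All 4 TET1 KO livers lay above the WT livers, and the fitted log2 difference was 0.45 (SE 0.13, adjusted p = 0.0768). Of 4 genes that dispose of propionyl-CoA, the product of odd chains, none was called and 3 were below 0. Pcca, a subunit of propionyl-CoA carboxylase, had 58.3, 87.8 and 58.8 CPM in WT livers and 18.9, 39.2, 39.1 and 46.6 CPM in TET1 KO livers. The groups did not overlap, and the fitted log2 difference was -0.92 (SE 0.26, adjusted p = 0.0793).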
